A study of Mus musculus with 2 samples.

Results

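The genes described here encode 9 chains of the cell-surface receptors for type I interferon (*Ifnar1* and *Ifnar2*), interferon-γ (*Ifngr1* and *Ifngr2*), IL-10 (*Il10ra* and *Il10rb*), IL-6 (*Il6ra* and *Il6st*, which encodes gp130), and IL-27 (*Il27ra*, whose partner is also gp130). They were taken by their symbols, and all 9 were found among the 48321 genes listed in each library. RNA-seq was performed on sorted CD4- mature thymocytes of MHC-II0:CD8ab Tg mice, strain label C57Bl/6, in 2 replicates, and these were the only libraries analysed. The mice lack I-Aβ and so have no conventional MHC class II, both endogenous *Cd8* coding genes are disrupted, and CD8α and CD8β are made from cDNAs placed in *Rosa26*, which are switched on when Cre driven by *Cd4* sequences removes a stop cassette. Both replicates carry all of these alleles, and their labels give no treatment and no age. No wild-type library was analysed here, so the values are levels within this genotype and no comparison between genotypes was made.

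All of these chains cross the plasma membrane once and have no enzyme activity of their own. Binding of the cytokine brings chains together, the Janus kinases (JAK1, JAK2 and TYK2) bound to their tails become active, and STAT proteins are phosphorylated, dimerize and enter the nucleus. Type I interferon acts in part through STAT2 and IRF9, and IL-10 and IL-6 act mainly through STAT3. Some chains are private to a cytokine (IL6RA, IL10RA, IL27RA) and others are shared: gp130 also serves IL-11, LIF, oncostatin M and related cytokines, and IL10RB also serves IL-22 and type III interferon. In thymus, type I interferon signalling is known to act in the last steps of thymocyte maturation, and IL-6 and IL-27 act on peripheral T cells by guiding helper fates and survival.

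The libraries held 16732644 and 16245849 counts on genes in replicates 1 and 2, which makes 3 counts, taken as the smallest level that can be shown, equal to 0.179 and 0.185 CPM (counts scaled to a total of 1000000 on genes). Titles of the samples give cells lacking both co-receptors and the cell type field gives CD8+ cells. *Cd8b1* had 12969 and 12762 counts and *Cd8a* 2647 and 2784, against 12 and 27 for *Cd4*. In these mice reads on *Cd8a* and *Cd8b1* can come from the *Rosa26* cDNAs or from what is left of the disrupted genes. Their counts therefore do not settle which label is right. All 9 T-cell markers examined, *Cd8a* and *Cd8b1* among them, had at least 1 CPM in both libraries, with summed levels of 4043 and 4021 CPM. All 7 markers of mature thymocytes did as well, with 4882 and 4808 CPM. *Xist*, which is transcribed from the inactive X chromosome, had 2.03 CPM in replicate 1 and 1555 CPM in replicate 2, so the sex of the source animals and the replicate cannot be told apart. This difference means that the libraries did not come from the same animal or pool, but the labels do not say how many mice stand behind each, and error terms below measure only the spread between these libraries.

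In the GENCODE M21 annotation of GRCm38, 4 of the 9 genes lie on the plus strand of chromosome 16 within 193 kb. From 5′ to 3′ they are *Ifnar2* (chr16:91372783-91405589), *Il10rb* (chr16:91406164-91425834), *Ifnar1* (chr16:91485238-91507441) and *Ifngr2* (chr16:91547072-91565623), which is the interferon receptor gene cluster. Only 574 bases separate the end of *Ifnar2* from the start of *Il10rb*, and the following gaps are 59403 and 39630 bases. The other members are scattered: *Ifngr1* at chr10:19591949-19610229 (plus strand), *Il10ra* at chr9:45253837-45269149 (minus), *Il6ra* at chr3:89864059-89913196 (minus), *Il6st* at chr13:112464070-112510086 (plus) and *Il27ra* at chr8:84030294-84042589 (minus). The 4 neighbours had unlike levels, which ran from 7.38 ± 1.95 for *Ifngr2* to 28.2 ± 1.46 for *Ifnar1* in CPM per kb of exon (mean ± SD, n = 2).

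**Figure D1:**
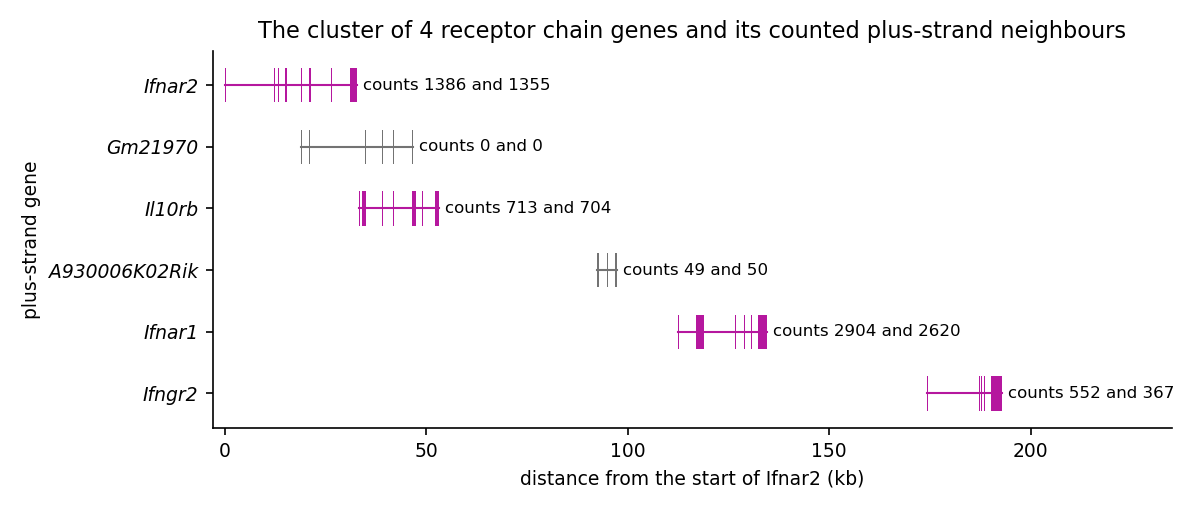
The cluster of 4 receptor chain genes on chromosome 16, with distance from the start of *Ifnar2* in kb on the x axis and a row for each counted gene of the plus strand. Boxes are exons, lines span the gene, receptor chains are in magenta and other genes in grey. The labels give the counts in replicates 1 and 2. *Gm21970*, which runs from *Ifnar2* into *Il10rb*, had 0 in both, but all of its exon bases are shared with these genes.

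*Gm21970*, annotated as a protein-coding gene on the same strand, uses exons of both *Ifnar2* and *Il10rb*: it shares 315 exon bases (9.46%) with *Ifnar2* and 569 (14.9%) with *Il10rb*. All of its annotated exon bases lie within exons of *Ifnar2* or *Il10rb*. A read in those stretches can match more than 1 gene and may be left uncounted. The 0 counts of *Gm21970* in both libraries therefore do not show whether it is transcribed. The levels of *Ifnar2* and *Il10rb* may be too low and are less certain than those of *Ifnar1* and *Ifngr2*, which share no exon bases. Among the others, *Il6ra* overlaps 242 bases of the antisense gene *Gm42809* (70 and 61 counts) and *Il27ra* overlaps *Palm3* on the opposite strand by 2 bases. Since the strand setting of the counting is not given in the sources used here, reads from *Il6ra* and its antisense partner may not be separable, although the counts on *Gm42809* were small beside the 2727 and 1773 counts on *Il6ra*.

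RefSeq start-site windows of GRCm38.p6 (250 bases before to 50 bases after the start) were at hand for 6 members: *Ifnar1*, *Ifnar2*, *Ifngr1*, *Ifngr2*, *Il6ra* and *Il6st*. They were rich in G and C, from 57% in *Ifnar2* to 74.3% in *Ifngr2*, and held 14 to 33 CpG dinucleotides each, against a median of 52.7% and 7 CpG over all 32851 windows. The GC box (GGGCGG), the letters bound by SP1-type factors, was found in 5 of 6, against 35.7% of all windows. The GAS element (TTCNNNGAA), the palindrome that STAT dimers bind, was found in 2 of 6, against 8.30% of all windows. These are shown because the 2 genes encode both chains of the type I interferon receptor, which signals to STATs, with the GAS letters and, in *Ifnar1*, a GC box upstream of it in capitals. The *Ifnar2* stretch is chr16:91372533-91372632 and the *Ifnar1* stretch, which runs across the annotated start, is chr16:91485135-91485218, both on the plus strand.
Ifnar2: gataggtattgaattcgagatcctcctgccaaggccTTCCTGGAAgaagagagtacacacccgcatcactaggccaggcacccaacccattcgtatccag
Ifnar1: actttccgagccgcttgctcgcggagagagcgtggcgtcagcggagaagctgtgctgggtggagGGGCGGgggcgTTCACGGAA

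Counted from the start as 1, with no position 0, the GAS letters began at position -214 in *Ifnar2* and at -5 in *Ifnar1*. The windows of *Ifngr2* and *Il6ra* are shown because these members differed most between the libraries. In *Ifngr2* (chr16:91546909-91547058, plus strand) the capitals mark 4 GC boxes, the first at position -57, and the last 2 of them overlap by 1 base. In *Il6ra* (chr3:89913197-89913346, minus strand) they mark an E-box (CACGTG), which was present in 7.15% of all windows and in no other window of the members.
Ifngr2: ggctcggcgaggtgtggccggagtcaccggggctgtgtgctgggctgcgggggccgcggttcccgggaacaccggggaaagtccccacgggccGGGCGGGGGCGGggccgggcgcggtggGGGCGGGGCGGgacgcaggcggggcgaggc
Il6ra: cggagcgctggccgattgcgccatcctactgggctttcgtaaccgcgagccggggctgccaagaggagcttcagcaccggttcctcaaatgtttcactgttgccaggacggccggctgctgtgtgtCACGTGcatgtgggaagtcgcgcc

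The CCAAT box (CCAAT) was found in 3 of 6 windows, those of *Ifngr1*, *Ifngr2* and *Il6st*, against 37.4% of all windows. The interferon-stimulated response element (GAAANNGAAA) and the TATA box (TATAAA) were in 0 of 6, against 3.44% and 13.6% of all. Each motif was searched on both strands. A match is a string of letters and not a measured binding site, and a window without one says only that these letters are not in it.

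Both chains of the type I interferon receptor were expressed. *Ifnar1*, the chain that carries TYK2, had 2904 and 2620 counts, or 174 and 161 CPM (167 ± 8.68, SD, n = 2). *Ifnar2*, the high-affinity binding chain that carries JAK1, had 1386 and 1355 counts, or 82.8 and 83.4 CPM (83.1 ± 0.406). *Ifnar1* was the higher of the pair in both libraries by count, but its exons are longer. Per kb of exon (CPM divided by the length of all annotated exon bases of the gene) *Ifnar1* was at 28.2 ± 1.46 and *Ifnar2* at 25.0 ± 0.122, and their ratio was 1.17 in replicate 1 and 1.08 in replicate 2. With coding bases only as length the mean ratio was 1.75. In bulk RNA such as this, fewer cells that express a gene and less of its RNA per cell cannot be told apart.

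The chains of the interferon-γ receptor were far apart. *Ifngr1*, which binds the ligand and carries JAK1, had 3633 and 3830 counts, or 217 and 236 CPM. *Ifngr2*, the accessory chain that carries JAK2, had 552 and 367 counts, or 33.0 and 22.6 CPM. Per kb of exon, *Ifngr1* reached 79.5 ± 4.63 CPM and *Ifngr2* 7.38 ± 1.95 CPM, a ratio of 8.71 in replicate 1 and 13.8 in replicate 2 (mean 11.3 ± 3.61), and the mean ratio was 5.92 with coding bases as length. *Ifngr1* stood at percentile 96.4 of the 10355 protein-coding genes with at least 1 CPM in both libraries, and *Ifngr2* at percentile 50.3, so it was the receptor chain nearest to the median gene (7.30 CPM per kb).

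Both IL-10 receptor chains were present at moderate levels. *Il10ra*, the private chain that binds IL-10 and recruits STAT3, had 947 and 1158 counts, or 56.6 and 71.3 CPM. *Il10rb*, the shared chain that carries TYK2, had 713 and 704 counts, or 42.6 and 43.3 CPM. Per kb of exon they were at 18.3 ± 2.97 and 11.3 ± 0.134 CPM. Their ratio was 1.45 in replicate 1 and 1.79 in replicate 2, and 0.907 on average when only coding bases were used as length, so the order of these chains depends on which bases count.

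All 3 chains of the gp130 group were expressed, and the private IL-27 chain was the highest of them per length. *Il27ra*, the private IL-27 chain that carries JAK1, had 5801 and 5879 counts, or 347 and 362 CPM. *Il6st*, the shared signal-transducing chain gp130, had 5837 and 4857 counts, or 349 and 299 CPM. *Il6ra*, the IL-6 binding chain, which has no kinase of its own, had 2727 and 1773 counts, or 163 and 109 CPM. The exons of *Il6st* and *Il6ra* are long (11099 and 8642 bases, against 3495 for *Il27ra*), and per kb *Il27ra* was at 101 ± 3.07 CPM, *Il6st* at 29.2 ± 3.18 and *Il6ra* at 15.7 ± 4.41. *Il27ra* thus stood above its partner by 3.16 times in replicate 1 and 3.84 times in replicate 2, and *Il6st* above *Il6ra* by 1.67 and 2.13 times. With coding bases as length these ratios were smaller, with means of 1.62 and 1.22.

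**Figure D2:**
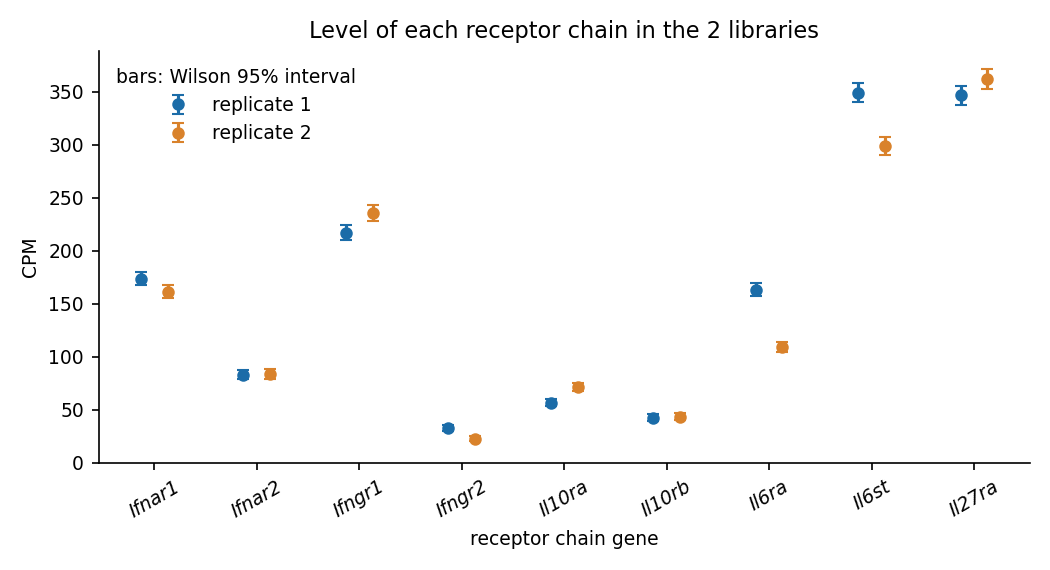
CPM of the 9 receptor chains in replicate 1 (blue) and replicate 2 (orange); points are the values, the y axis starts at 0, and bars are Wilson 95% intervals, which cover counting error only. *Il6ra* (163 and 109 CPM) and *Il6st* (349 and 299 CPM) are visibly lower in replicate 2, and for *Ifnar2* and for *Il10rb* the points of the replicates lie at the same height.

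Ordered by CPM per kb, the members ran *Il27ra*, *Ifngr1*, *Il6st*, *Ifnar1*, *Ifnar2*, *Il10ra*, *Il6ra*, *Il10rb* and *Ifngr2*. The highest exceeded the lowest by 11.3 times in replicate 1 and 17.3 times in replicate 2. For 6 of the 8 neighbouring pairs in this order the ranges of the libraries did not overlap. The exceptions were *Il6st* with *Ifnar1* (26.9 to 31.4 against 27.2 to 29.2 CPM per kb) and *Il10ra* with *Il6ra* (16.2 to 20.4 against 12.6 to 18.9), which did not differ beyond their spread. With 2 libraries no exact test of an order can reach 0.05, so these are descriptions.

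The length used per gene changed mainly the middle of the order. By their means, *Il27ra* and *Ifngr1* were first and second and *Ifngr2* last with all exon bases, with the longest transcript and with coding bases, except that with coding bases *Il10ra* (32.8) was below *Ifngr2* (33.1) in replicate 1. With coding bases *Il6ra* moved from the seventh place to the fourth, at 98.6 CPM per kb of coding sequence, since 1380 of its 8642 exon bases are coding, and *Il10rb* (40.8) passed *Il10ra* (37.1). With the longest transcript *Ifnar1* (42.8) passed *Il6st* (37.3). Which transcripts these cells make was not measured.

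**Figure D3:**
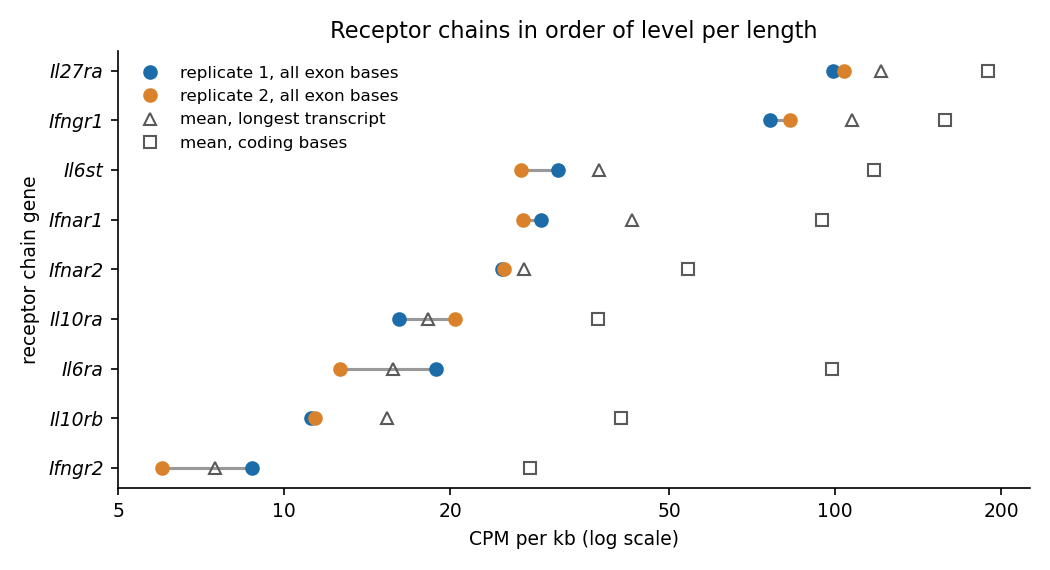
CPM per kb of each receptor chain on a log axis, in order of the mean over all exon bases. Filled points are replicates 1 (blue) and 2 (orange) joined by a line, and open triangles and squares are means with the longest transcript and with coding bases as the length; *Il27ra* and *Ifngr1* stay above the other 7 and *Ifngr2* stays last by its mean under each.

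Between the libraries, *Il6ra* and *Ifngr2* differed most among the members. Both were lower in replicate 2, with log2 ratios of replicate 2 to replicate 1 of -0.58 for *Il6ra* (Wilson 95% intervals 157 to 169 and 104 to 114 CPM) and -0.55 for *Ifngr2* (30.4 to 35.9 and 20.4 to 25.0 CPM). *Il6st* was also lower, by a log2 ratio of -0.22, so both chains of the IL-6 receptor were lower in the same library. *Il10ra* was higher in replicate 2, with a log2 ratio of 0.33, while its partner *Il10rb* was at 0.02. In a two-sided exact binomial test of the counts over all 15949 genes with at least 10 counts, with Benjamini-Hochberg adjustment, the adjusted p was 7.85e-38 for *Il6ra*, 5.73e-07 for *Ifngr2*, 1.48e-13 for *Il6st* and 4.39e-06 for *Il10ra*. This test compares these 2 libraries and not conditions.

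The same test called *Ifnar1* (log2 ratio -0.11, adjusted p = 0.0426) and *Ifngr1* (0.12, adjusted p = 0.00444), which makes 6 of 9 members, 4 lower and 2 higher in replicate 2, where 16.3% of all tested genes were called, 2.82% as lower and 13.5% as higher. Since small differences pass more easily at high counts, the members are better read against genes of like depth: 5 of the 8 members with at least 1000 counts were called, against 31.2% of all such genes. *Ifnar2* (0.01, adjusted p = 0.957), *Il10rb* (0.02, adjusted p = 0.917) and *Il27ra* (0.06, adjusted p = 0.0987) did not pass. At 2-fold or more 0 of 9 members were called, the farthest apart being *Il6ra* at 1.49-fold, against 1.52% of all genes. Of the 5719 genes in that class, 45 (0.787%) were as far apart as *Il6ra* or farther, in either direction, against 3.36% for *Il10ra* and 11.7% for *Il6st*. *Ifngr2* had fewer counts than this class and was not ranked in it.

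**Figure D4:**
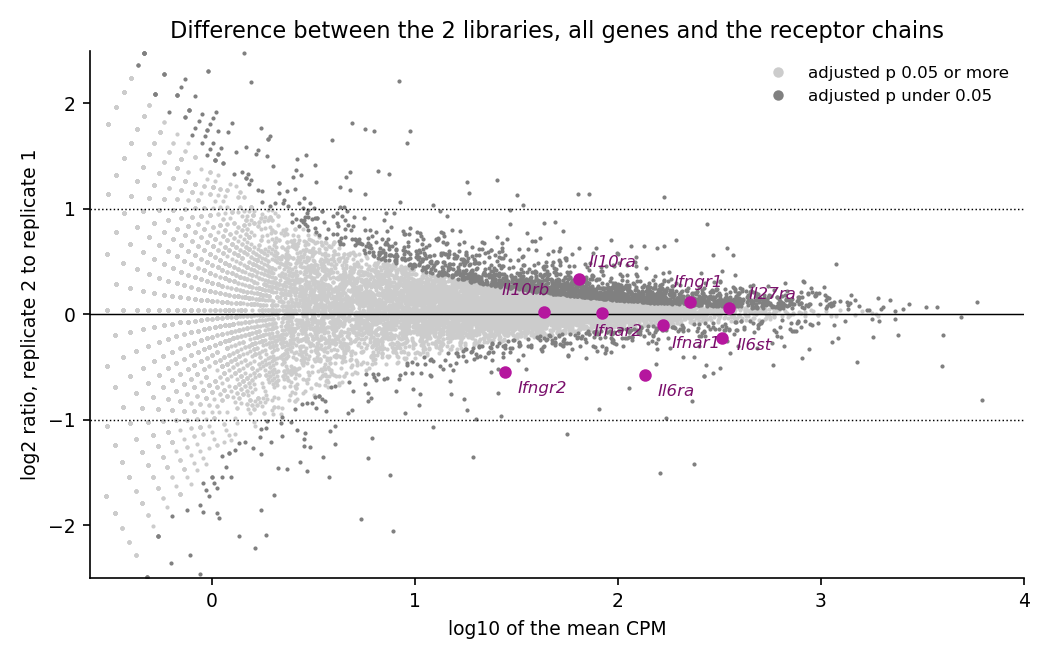
Each point is a gene with at least 10 counts over both libraries, plotted by the log10 of its mean CPM (x) and the log2 ratio of replicate 2 to replicate 1 (y); dark grey marks an adjusted p under 0.05 in the exact binomial test, magenta the receptor chains, dotted lines a 2-fold difference, and genes beyond the y axis are not drawn. *Il6ra* and *Ifngr2* lie at -0.58 and -0.55, inside the 2-fold lines.

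These calls rest on counting error alone. With an assumed biological coefficient of variation of 0.1 in edgeR's exact test, 0 of 9 members passed the adjusted threshold, against 0.464% of all genes, and 2 of 9 (*Il6ra* and *Ifngr2*) had an unadjusted p under 0.05. Scaling also mattered: of the 2596 genes called with library totals, 2146 were higher in replicate 2 (82.7%), against 48.1% of 1688 with edgeR's TMM factors and 57.3% of 1731 with DESeq2's size factors, and the median log2 ratio of all genes was 0.076, -0.003 and 0.014 in turn. *Ifngr1* was no longer called with either (adjusted p = 0.536 and 0.313), while *Il6ra*, *Ifngr2*, *Il6st* and *Ifnar1* kept lower values and *Il10ra* a higher value in replicate 2, each past the threshold. Of the 7 maturity markers 6 were lower in replicate 2, 4 of them called (among them *S1pr1* -0.48, *Ccr7* -0.30 and *Cd5* -0.20), and 1, *H2-K1* (0.10), was called higher, where 2.82% and 13.5% of all genes were called lower and higher. These 7 all had at least 1000 counts over both libraries, and 31.2% of all genes at that depth were called in either direction. With TMM 6 were called lower and 0 higher, and with edgeR's fixed dispersion 0 were called. The libraries also differed in *Xist* and in the share of counts on mitochondrial and ribosomal RNA genes (16.01% and 12.64%), and the part of these in the differences of *Il6ra* and *Ifngr2* was not tested.

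Ligands for these receptors were mostly not detected in the thymocytes. Of 29 ligand genes 3 had at least 1 CPM in both libraries, 18 had 0 counts in both and 23 were at or under 3 counts in both. Of all 48321 genes listed, 12667 (26.2%) had at least 1 CPM in both. Of the same genes 24239 had 0 counts in both and 30454 were at or under 3 counts in both. *Clcf1*, which encodes a ligand of the CNTF receptor with gp130, had 1938 and 1853 counts (115 CPM), and its mean of 30.2 ± 0.327 CPM per kb was above that of 7 of the 9 receptor chains, although within the range of *Il6st*. *Osm*, encoding oncostatin M, had 222 and 192 counts (12.5 CPM) and *Ifng*, encoding interferon-γ, 78 and 51 (3.90 CPM). *Il10*, *Il6* and *Il22* had 0 counts in both, and the IL-27 subunits *Il27* and *Ebi3* had 0 and 1, and 3 and 0.

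Among 17 type I interferon genes 15 had 0 counts in both, *Ifna6* had 1 and 0, and *Ifnk* 2 and 0, all below what this depth can show. Reads of 50 bases from alike copies of this family may be split between them or left uncounted: 67.4% of the 50-base windows of *Ifna1* and 52.2% of those of *Ifna5* occur in other genes. For *Ifnb1*, *Ifnk*, *Ifne*, *Il10* and *Il6* this share was 0%, and it was 6.77% for *Clcf1*. Among the receptor chains it ran from 0% for *Il10ra*, *Il6st* and *Il27ra* to 7.89% for *Ifnar2* and 13.9% for *Il10rb*, the 2 that share exons with *Gm21970*.

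Further chains of the same receptor families, most of which pair with IL10RB or gp130, were at low levels or at 0. Of 9 such genes 2 had at least 1 CPM in both libraries, close to the 26.2% of all listed genes that did. The 2 were *Il11ra1*, the IL-11 binding chain (49 and 37 counts, 2.60 CPM), and *Il20rb*, a chain of the IL-20 and IL-24 receptors (33 and 18 counts, 1.54 CPM). *Il22ra1*, *Il22ra2*, *Osmr* and *Cntfr* had 0 counts in both, as did 24239 of all 48321 listed genes. Neither share sets these chains apart from genes at large. *Ifnlr1*, the private chain of the type III interferon receptor that pairs with IL10RB, had 0 and 1, *Il20ra* 0 and 1, and *Lifr*, the partner of gp130 for LIF, 5 and 2. For *Il10rb* and *Il6st*, the shared members, the private chain of IL-10, IL-6 or IL-27 had a mean of 15.7 CPM per kb or more, while none of the 9 further chains exceeded 0.582.

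Downstream, all 7 kinase and STAT genes were expressed. *Jak1*, the kinase carried by at least 1 chain of each of these receptors, had 16887 and 18049 counts and 147 ± 9.96 CPM per kb, above every receptor chain, whereas *Jak2* was at 26.0 ± 1.52 and *Tyk2* at 13.3 ± 0.234. *Irf9* was at 33.0 CPM per kb, *Stat3* at 26.3 and *Stat2* at 17.2. Between the libraries *Jak1*, *Jak2*, *Stat3* and *Irf9* were called higher in replicate 2 (log2 ratios of 0.09 to 0.15), 4 of 7 where 13.5% of all genes were called higher and the median of all genes was itself at 0.076. All 7 had at least 1000 counts over both libraries, and 31.2% of all genes at that depth were called in either direction. With TMM or DESeq2 scaling 1 of the 7, *Jak1*, was called, and with edgeR's fixed dispersion 0.

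All 8 negative regulators and sheddases had at least 1 CPM in both libraries. The phosphatase gene *Ptpn6* (SHP-1) led with 176 ± 5.14 CPM per kb, followed by *Usp18*, whose product binds IFNAR2 and dampens type I interferon signalling, with 34.5 ± 1.76. *Adam10* and *Adam17*, proteases that can cleave IL6RA from the surface, were at 30.3 and 14.2 CPM per kb, and *Socs1* and *Socs3*, feedback inhibitors of JAKs and of gp130 signalling, at 27.5 and 14.6. Of the 8, 1 was called between the libraries, *Ptpn11* (SHP-2), higher in replicate 2 with a log2 ratio of 0.24, which is close to the 13.5% of all genes called higher. Each of the 8 had at least 1000 counts over both libraries, and 31.2% of all genes at that depth were called in either direction. With TMM or DESeq2 scaling *Usp18* was also called, as lower.

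All 10 genes known to respond to interferon or STAT3 were expressed as well. *Bst2* had 103 ± 9.39 CPM per kb, *Isg15* 79.7 ± 1.74, *Irf1* 68.6 ± 0.272 and *Irf7* 50.0 ± 1.24, and the lowest was *Bcl3* at 7.74 ± 0.67. Between the libraries 3 were called lower in replicate 2 (*Mx1* with a log2 ratio of -0.33, *Ifit1* -0.24 and *Bst2* -0.19) and 1 higher (*Oas1a*, 0.63), where 2.82% of all genes were called lower and 13.5% higher. All but *Oas1a* and *Bcl3* had at least 1000 counts over both libraries, a class in which 31.2% of all genes were called in either direction. With TMM 5 were called lower and 1 higher, and with edgeR's fixed dispersion 0 were called. Their median log2 ratio was -0.11, beside 0.01 for the 9 receptor chains and 0.08 for all tested genes.

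The other large family of cytokine receptors in T cells, the chains of the common gamma group, gives a scale. Its 8 genes had a median of 60.3 CPM per kb, from 0.558 for *Il2ra*, the inducible IL-2 chain, to 130.2 for *Il2rb*, while the 9 members had a median of 25.0, from 7.38 to 101. *Il27ra* (101 ± 3.07) was level with *Il2rg* (102 ± 8.03), the common gamma chain itself, and *Ifngr1* (79.5 ± 4.63) with *Il7r* (77.4 ± 0.085), within the spread of the libraries. These medians and matches use all exon bases as length, and no other length was tried for the common gamma genes. By mean CPM the pairs were not level: *Il27ra* was at 354 and *Il2rg* at 244, and *Ifngr1* at 226 and *Il7r* at 361. The lists were not tested against each other. By flow cytometry the paper found many CD4- mature thymocytes of these mice to be innate memory-like cells, for which CD122 is a marker. CD122 is the product of *Il2rb*, so the top of this scale, like all levels here, belongs to that mixture of cells.

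**Figure D5:**
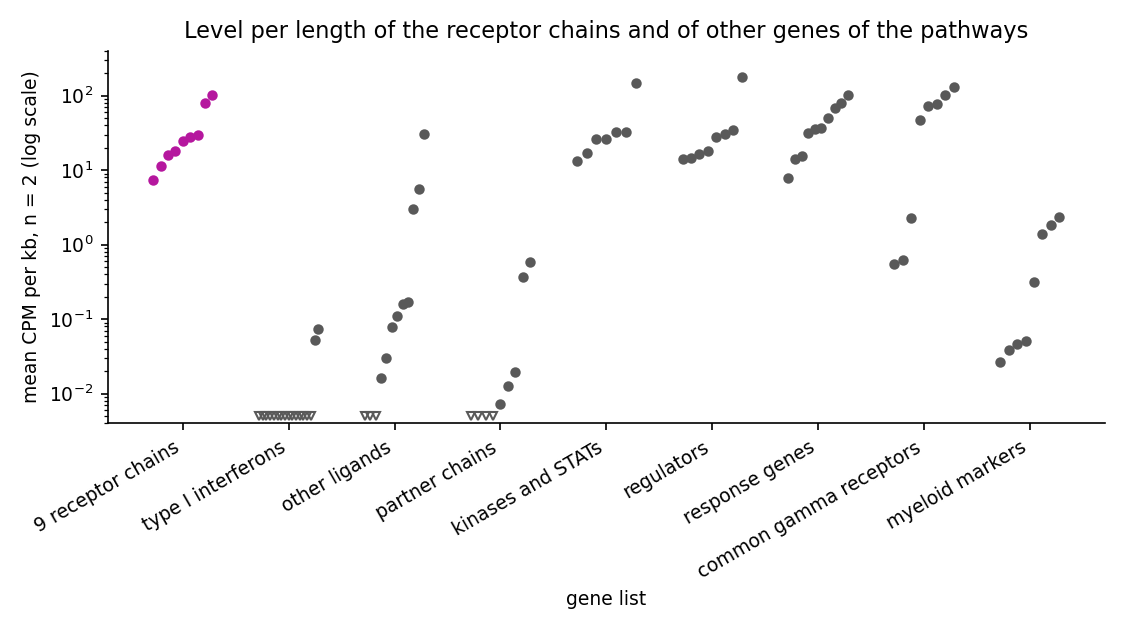
Mean CPM per kb over replicates 1 and 2, on a log axis, for the 9 receptor chains (magenta) and the genes of each list (grey), sorted within a list; open triangles at the bottom are genes with 0 counts in both libraries. The receptor chains, kinases and STATs, regulators and response genes all lie between 7.38 and 176, while 18 of the 29 ligand genes and 4 of the 9 partner chains are at 0. Of all 48321 listed genes 24239 had 0 counts in both libraries.

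Myeloid cells, B cells and thymic epithelium also express many of these receptors, so their markers are given beside the levels. The 8 myeloid markers summed to 17.8 and 18.7 CPM, with 4 at 1 CPM or more in both libraries. These 4 were *Csf1r* (163 and 191 counts), *Cd68* (51 and 47), *Fcgr3* (44 and 36) and *Itgam* (34 and 18). The other 4 were *Itgax* (3 and 5 counts), *Lyz2* (0 and 2), *Adgre1* (0 and 4) and *Mpo* (2 and 1). The 6 B-cell markers summed to 13.6 and 15.5 CPM, mostly *Cd79b* (196 and 227 counts). The 6 thymic epithelial markers summed to 3.89 and 4.37 CPM, and 4 of 5 erythroid markers had 0 counts in both. Of 6 genes of double-positive thymocytes, *Rag1* had 8 and 19 counts, *Rag2* 4 and 1 and *Ptcra* 2 and 2, and *Dntt* had 224 and 211, and the 6 summed to 16.3 and 17.2 CPM. The sum of each of these lists was below the CPM of *Ifngr2*, the lowest member, in both libraries. Such sums do not give the amount of receptor RNA that these other cells would bring, which was not tested.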

How the data were processed

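Poly(A) RNA of sorted thymocytes was sequenced as single-end 50-bp reads in 2 libraries of 1 group. Per the labels and methods, the authors mapped reads to mm10 (GRCm38) with TopHat2 2.1.1, counted them per gene with HTSeq 0.6.1 and deposited raw counts; the annotation and strand setting are not given in the sources used here. Lines for reads assigned to no gene were left out of the totals, which were 40.6% and 41.2% of the uniquely aligned reads. No per-sample column of another series was present (0).

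CPM were computed from the deposited counts, with mean and SD, Wilson 95% intervals and a floor of 3 counts. Intervals and floors cover counting error only: no molecular identifiers are described, so reads may be copies of 1 molecule. Lengths, positions and overlaps came from GENCODE M21, which matched 46294 of 48321 symbols to 1 gene and all 9 members. The main length was the union of exon bases. Genes with at least 10 counts over both libraries were compared between libraries with the exact binomial test (two-sided, p-values adjusted after Benjamini and Hochberg), called at an adjusted p under 0.05 (scipy 1.17.1, statsmodels 0.14.6, Python 3.11.15), with 0.5 added to counts for log2 ratios. The test was checked on simulated data. The alternatives were TMM and DESeq2 1.42.0 scaling, edgeR 4.0.16 (R 4.3.3) with a fixed biological coefficient of variation of 0.1, totals without 393 mitochondrial and ribosomal RNA genes, minimums of 1 or 100 counts and of 0.5 or 5 CPM, other lengths, and each replicate left out. The length without bases shared with other genes, and coding length for the ratios, were added after the data were seen.

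The members and gene lists were chosen with earlier results of these data known. The genes named are the 9 members, genes that overlap or lie between them, and genes of the lists (type I interferon and other ligands, partner chains, kinases and STATs, negative regulators and sheddases, response genes, common gamma chain receptors, and markers of T cells, maturity, double-positive thymocytes, B, myeloid, epithelial and erythroid cells). Up to 5 of the highest genes of each list are named. The members, the ligands, the partner chains and some markers of other cell types are given more fully. Genes beyond these were named after their values were seen.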

Additional observations from a re-analysis of the deposited data

How the results depend on the processing

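The mean levels of all 9 members moved by less than 1 SD with TMM or DESeq2 scaling. These factors raise the values of 1 library and lower those of the other, so a mean over both can hardly move. This result therefore says nothing about stability. With 2 libraries, leaving out either one says nothing about stability, and omitting mitochondrial and ribosomal RNA genes from the totals raises every gene in nearly the same proportion (*Ifnar1* from 167 to 196 CPM). With coding length 4 of 9 members kept their place in the order. With the longest transcript the ratios per kb were 1.57 for *Ifnar1* over *Ifnar2* (main value 1.13), 14.9 for *Ifngr1* over *Ifngr2* (11.3), 1.19 for *Il10ra* over *Il10rb* (1.62) and 2.43 for *Il6st* over *Il6ra* (1.90), and with unshared exon bases the first was 1.02. With coding bases they were 1.75, 5.92, 0.907 and 1.22 in the same order, which turns the order of *Il10ra* and *Il10rb*, and *Il27ra* over *Il6st* was 1.62 (3.50). The ratios with unshared and with coding bases were chosen after seeing the data. The number of genes that differed between the libraries, 2596, became 1688 with TMM and 74 with edgeR's fixed dispersion, and the number also 2-fold apart, 242, became 55 with a minimum of 100 counts and 60 with edgeR. Of the 6 members called, 0 remained with edgeR, and 2 members had an unadjusted p under 0.05. The log2 ratio turned negative with TMM for *Ifnar2* (-0.069), *Il10rb* (-0.054) and *Il27ra* (-0.017), and with DESeq2 for *Ifnar2* (-0.052) and *Il10rb* (-0.037), none of them called in any setting. *Ifnar1* missed the threshold with a minimum of 1 count (adjusted p = 0.064, exact binomial test), against 7.03e-05 to 0.0426 in the other settings of that test, and the adjusted p of *Ifngr1* ran from 0.00316 to 0.536 in the same test. With a minimum of 5 CPM, 0 partner chains passed, against 2. No paired analysis was possible because there is a single group. With 1 group and 2 libraries, levels are precise in counting but the spread between animals is not known.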
